A study of Caenorhabditis elegans with 14 samples.

Results

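Small RNAs of 21 to 26 nt that match sosi-1 (WBGene00016565) and eri-6 (WBGene00016561) are described here, 2 of the 20541 genes in the count table of the series. They were chosen by position: sosi-1 lies inside the span of eri-6, on the opposite strand. The libraries came from whole young adult Caenorhabditis elegans and were made after a 5' polyphosphatase treatment, which lets RNAs enter the library whatever phosphates they carry at the 5' end. The 12 libraries fall into 5 groups. The hrde-1;HC125 strain (HC995, 2 libraries) joins an hrde-1 mutation, for which the labels give no allele, to the Psid-1::gfp reporter of HC125 (4 libraries). HC83 non-array animals were sampled at generation F6, labelled silenced (2 libraries), and at generation F21, labelled de-silenced (2 libraries). N2, the wild type, has 2 libraries. The labels do not say whether libraries of a group came from separate cultures, so p-values measure the spread between these libraries.

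Most endogenous siRNAs of C. elegans are 22G RNAs, which RNA-dependent RNA polymerases make on target transcripts and Argonaute proteins then bind. HRDE-1 is the Argonaute that carries 22G RNAs into germline nuclei, where they direct heritable silencing. ERI-6/7 is a helicase needed for the primary 26G siRNAs bound by the Argonaute ERGO-1, and its mRNA is assembled by trans-splicing of 2 separate transcripts, one from eri-6 and one from the neighbouring gene eri-7. sosi-1 is known as a target of siRNAs made in the mutator pathway, and this stretch of the genome has been described as a place where siRNAs feed back on the supply of the helicase.

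In the Ensembl annotation of the WBcel235 assembly, eri-6 spans 12086 bases of chromosome I, from 4457375 to 4469460 on the plus strand, and has 7 transcripts. sosi-1 is a single exon of 2559 bases, from 4460146 to 4462704 on the minus strand. The exon of sosi-1 and the exons of 2 eri-6 transcripts share 1131 bases, from 4460146 to 4461276. These are 44.2% of the sosi-1 exon and 22.6% of the joined eri-6 exons. Another 2 eri-6 transcripts begin beyond sosi-1, and 3 start before it and end beyond it, 1 of which has an exon over it. No source used here says whether the counting used strand, so reads from the shared bases cannot be assigned to a strand, and the 2 counts may not be independent there. eri-7 lies 569 bases before eri-6 on the minus strand. The genes linc-104 and T01A4.9, which also lie in the eri-6 span, were not analysed here.

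**Figure D1:**
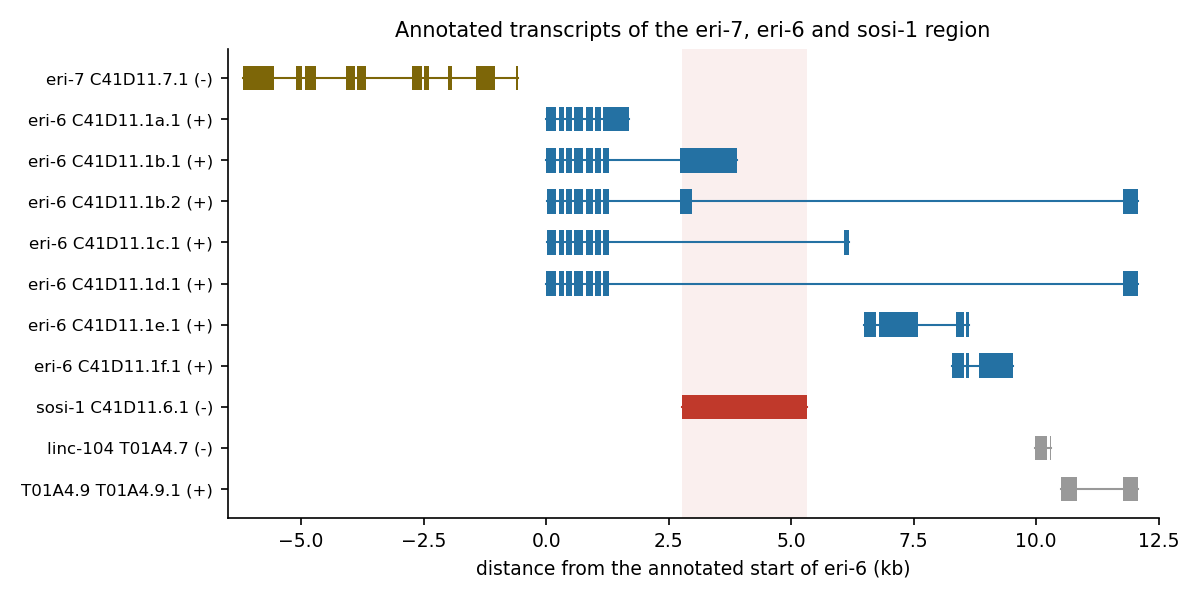
Annotated transcripts of eri-7, eri-6, sosi-1 and the other genes in the eri-6 span, drawn to scale as distance in kilobases from the start of eri-6, with exons as boxes, strand in the labels and the sosi-1 span shaded. The sosi-1 exon lies within the eri-6 span, and 1131 of its 2559 bases are also exon of 2 eri-6 transcripts.

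Library totals ran from 451389 to 6379388 counts, and hrde-1;HC125 had 6379388 and 3881568. Of the 20541 genes, 10470 passed the filter on low counts, both members among them. N2 replicate 2, HC125 replicate 1 and HC125 replicate 2 stood apart from the other libraries on the second principal component. Levels are given as CPM, counts per 1e+06 after scaling by the trimmed mean of M-values (TMM). A gene was called where edgeR's quasi-likelihood test, adjusted by the Benjamini-Hochberg method over the 10470 genes, gave a p under 0.05.

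sosi-1 small RNAs fell 16.1-fold in hrde-1;HC125 relative to HC125, while eri-6 small RNAs were at 79.5% of the HC125 level and did not pass the test. One member of the 2 was therefore called, where 17.0% of all tested genes were called, 7.76% higher and 9.20% lower. TMM scaling gave 812 genes called higher and 963 lower. Scaling by library size alone gave 645 higher and 1194 lower, and shifted the all-gene median log2 fold change by -0.12.

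sosi-1 stood at 42.1 and 38.6 CPM in the 2 hrde-1;HC125 libraries, from 251 and 143 counts. The 4 HC125 libraries had 735, 643, 639 and 598 CPM, from 342, 758, 1152 and 2274 counts. Each hrde-1;HC125 library was below every HC125 library, and the groups did not overlap. The means were 40.3 ± 2.50 CPM in hrde-1;HC125 (SD, n = 2) and 654 ± 58.0 CPM in HC125 (SD, n = 4). The log2 fold change was -4.01 ± 0.16 (SE), with a 95% interval of -4.34 to -3.68 and an edgeR adjusted p of 6.70e-12.

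The sosi-1 signal did not vanish in the mutant. Counting error alone, as exact Poisson intervals at 95%, places the 2 hrde-1;HC125 values between 37.0 and 47.6 CPM and between 32.5 and 45.4 CPM, and 6.16% of the HC125 level remained. Within a library, sosi-1 ranked between 222 and 276 among all genes by count in the 10 libraries outside hrde-1;HC125, and ranked 4063 and 4238 in hrde-1;HC125. Of the 963 genes called lower in hrde-1;HC125 than in HC125, sosi-1 had the 66th lowest log2 fold change. Among the 326 tested genes with a mean of at least 500 CPM in HC125, 109 were called lower and 8 had a lower log2 fold change than sosi-1.

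The same separation held against the other groups. F6 libraries had 699 and 689 CPM of sosi-1, F21 libraries 716 and 709.6 CPM, and N2 libraries 743 and 726 CPM, all far above the hrde-1;HC125 values. In hrde-1;HC125 the log2 fold change was -4.10 ± 0.16 relative to F6 (SE, edgeR adjusted p = 1.01e-11), where 17.3% of genes were called. Relative to F21 it was -4.14 ± 0.16 (adjusted p = 1.63e-11), where 14.7% were called, and relative to N2 it was -4.18 ± 0.17 (adjusted p = 1.83e-11), where 17.7% were called. The 4 comparisons share the hrde-1;HC125 libraries. The libraries are of whole animals, so fewer cells that make an siRNA and less of it per cell cannot be told apart. The summed share of small RNAs matching major sperm protein genes was 0.0967% and 0.0681% in hrde-1;HC125. It was 0.137%, 0.131%, 0.0690% and 0.0425% in HC125 replicates 1, 2, 3 and 4, so these ranges overlapped. The HC125 values above both mutant values came from replicates 1 and 2, which stood apart. These are siRNAs matching the genes, so they do not measure sperm content.

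eri-6 ranked between 5 and 11 by count in the 10 libraries outside hrde-1;HC125, and 21 and 24 in hrde-1;HC125. It stood at 3752 and 3285 CPM in hrde-1;HC125, from 22377 and 12184 counts. The HC125 libraries had 4576, 4655, 4283 and 4194 CPM, from 2128, 5483, 7717 and 15943 counts. Both hrde-1;HC125 libraries were below all 4 HC125 libraries, so the groups did not overlap here either, but by a small margin. With 2 libraries against 4, such a separation is weak evidence by itself, and its share over all genes was not counted. The means were 3518 ± 330.2 CPM in hrde-1;HC125 (SD, n = 2) and 4427 ± 223 CPM in HC125 (SD, n = 4). The log2 fold change was -0.33 ± 0.13 (SE), with a 95% interval of -0.61 to -0.06, and the edgeR adjusted p of 0.0990 missed the threshold. This call depended on the processing: eri-6 passed under 5 of 19 alternatives, DESeq2 (-0.34, adjusted p = 0.0247) and scaling by library size alone (-0.46, adjusted p = 0.00916) among them.

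F6 libraries had 4859.8 and 4703 CPM of eri-6, F21 libraries 4794 and 4724 CPM, and N2 libraries 5989.7 and 4907 CPM. The hrde-1;HC125 values were again below all of these. eri-6 was lower in hrde-1;HC125 than in N2, with a log2 fold change of -0.63 ± 0.15 (SE, edgeR adjusted p = 0.00650). Without hrde-1;HC125 replicate 2 this was -0.57 with an adjusted p of 0.0739. It was also lower in hrde-1;HC125 than in F6, at -0.44 ± 0.15 (adjusted p = 0.0486), a call held under 10 of 19 alternatives. The call against F6 was lost on leaving out any 1 of 7 libraries: hrde-1;HC125 replicate 1 (adjusted p = 0.0835) or 2 (0.311), F6 replicate 1 (0.204) or 2 (0.164), F21 replicate 2 (0.0775), HC125 replicate 3 (0.121) or HC125 replicate 4 (0.0627). Relative to F21 the value was -0.44 ± 0.15 with an adjusted p of 0.0593, which missed the threshold. It passed under 8 of 19 alternatives, among them DESeq2 (adjusted p = 0.0127), scaling by library size alone (0.0111) and a fit of only the 2 groups (0.00362).

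**Figure D2:**
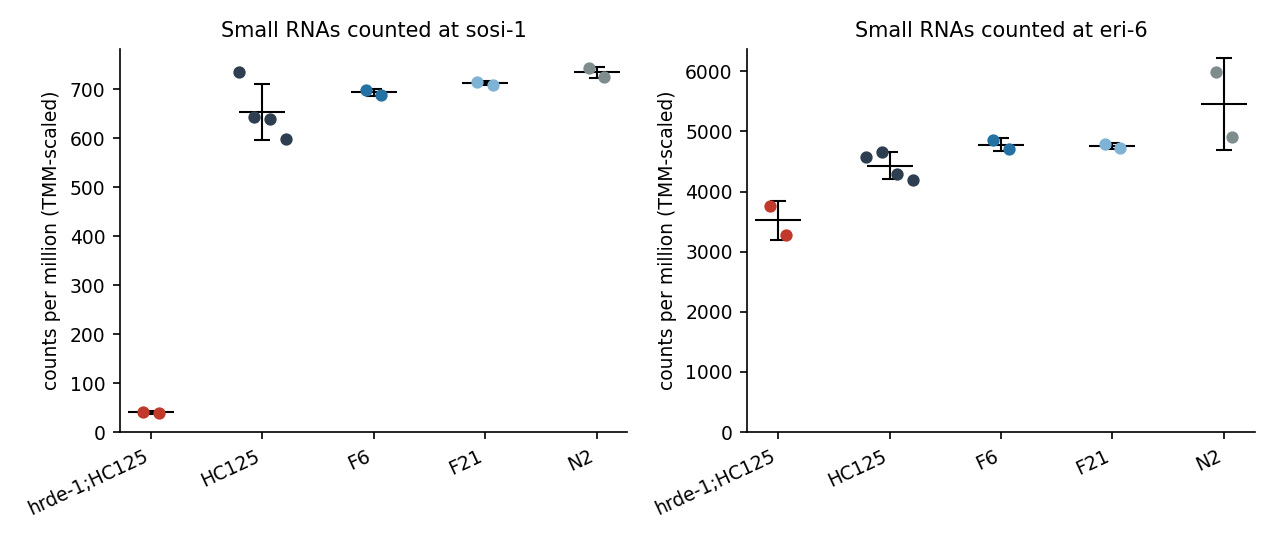
Level of sosi-1 and of eri-6 small RNAs in each of the 12 libraries, in CPM on linear axes from 0, by group, with the group mean and SD as bars. The sosi-1 points of hrde-1;HC125, at 42.1 and 38.6 CPM, sit far below those of the other groups, at 598 to 743 CPM, whereas the eri-6 points of all groups lie between 3285 and 5989.7 CPM.

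The 2 counts were also compared within each library, where the scaling between libraries has no part. For every 100 eri-6 counts there were 1.12 and 1.17 sosi-1 counts in the hrde-1;HC125 libraries. The HC125 libraries had 16.1, 13.8, 14.9 and 14.3, and F6 had 14.4 and 14.6. F21 had 14.9 and 15.02, and N2 had 12.4 and 14.8. The 10 libraries outside hrde-1;HC125 thus stayed between 12.4 and 16.1, and none came near the mutant values. The mean log2 ratio was -6.44 in hrde-1;HC125 and -2.76 in HC125, a difference of -3.68. A two-sided exact permutation test gave p = 0.0667, the smallest value that 2 libraries against 4 allow, so this design could not reach 0.05. Against all 10 other libraries, whose mean was -2.79, the difference was -3.66. The exact permutation p was 0.0152, again the smallest possible, and 0.0303 after adjustment over the 2 tests. That test pools HC125, F6, F21 and N2 as if they were a single group, and the mutant still has only 2 libraries. Small RNAs at sosi-1 and at eri-6 therefore changed unequally, but a ratio does not show that either was unchanged.

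**Figure D3:**
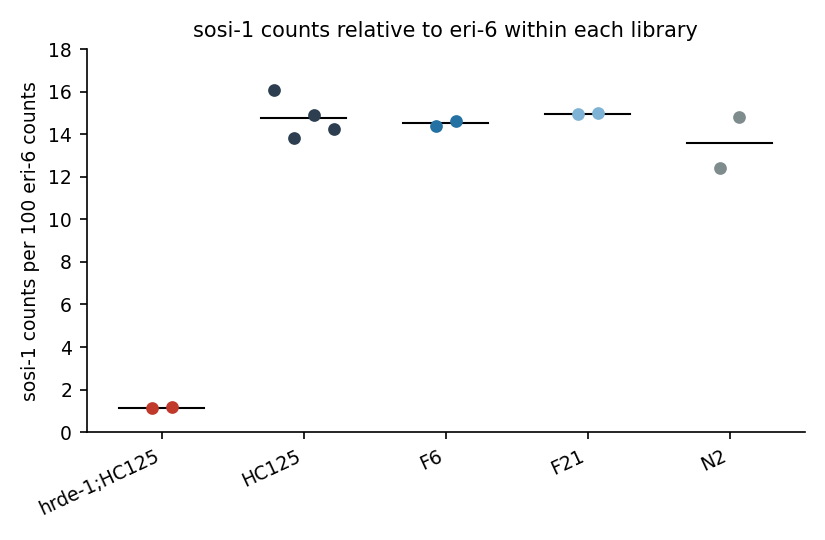
sosi-1 counts per 100 eri-6 counts in each library, by group, on a linear axis from 0, with a line at the group mean. The hrde-1;HC125 libraries lie at 1.12 and 1.17, and the other 10 libraries lie between 12.4 and 16.1.

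Apart from hrde-1;HC125, both levels were steady. sosi-1 ran from 598 to 743 CPM over 10 libraries, a 1.24-fold range with an SD of 0.10 on the log2 scale. Of 387 tested genes within 2-fold of its mean, 25 (6.46%) had a smaller SD. eri-6 ran from 4194 to 5989.7 CPM, a 1.43-fold range with an SD of 0.14, and 2 of 39 genes (5.13%) within 2-fold of its mean had a smaller SD. Within HC125, sosi-1 fell from 735 CPM in replicate 1 (451389 counts in total) to 643, 639 and 598 CPM in replicates 2, 3 and 4. Library totals rose in that order, to 3741687 counts in replicate 4. The counting intervals of replicate 1 (660 to 818 CPM) and replicate 4 (574 to 623 CPM) did not overlap. The 2 F21 libraries, with 3758704 and 514814 counts, had 716 and 709.6 CPM. An effect of depth was not tested.

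The Psid-1::gfp reporter was not accompanied by a called change at the locus. By edgeR neither member passed in HC125 relative to N2, where 0.506% of genes were called, and neither passed by DESeq2. eri-6 had an unadjusted p of 0.0313. The log2 fold change of sosi-1 was -0.17 (95% interval -0.44 to 0.09, adjusted p = 0.638), and HC125 and N2 overlapped. For eri-6 it was -0.30 (95% interval -0.57 to -0.03, adjusted p = 0.410), with 4 HC125 libraries below both N2 libraries. Leaving out the 3 libraries that stood apart, eri-6 was called lower in HC125, at -0.48 with an adjusted p of 0.00771.

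The F6 and F21 generations, which the labels set apart as silenced and de-silenced, showed no called difference at the locus. Neither member passed by edgeR or DESeq2 in F6 relative to F21, or at an unadjusted p under 0.05, where 0.143% of genes were called. The log2 fold change of sosi-1 was -0.04 (95% interval -0.34 to 0.26) and that of eri-6 was 0.01 (95% interval -0.31 to 0.32), so differences within these intervals cannot be told from none. Small RNAs at sid-1, the gene under study, which encodes a double-stranded RNA importer, had 4732 and 4159 CPM at F6 against 731 and 801 CPM at F21 (log2 fold change 2.54, edgeR adjusted p = 1.57e-07). Whether the change at sid-1 differed from that at the locus was not tested.

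Relative to N2, neither generation was called. By edgeR 1.43% of genes were called in F6 and 0.201% in F21, and neither member passed by DESeq2 or at an unadjusted p under 0.05. For sosi-1 the log2 fold change was -0.08 in F6 (95% interval -0.39 to 0.22) and -0.04 in F21 (-0.35 to 0.27). For eri-6 it was -0.19 in F6 (-0.50 to 0.13) and -0.19 in F21 (-0.51 to 0.12). Relative to HC125, F6 differed by 0.09 for sosi-1 and 0.11 for eri-6, where 0.621% of genes were called. HC125 relative to F21 gave -0.13 for sosi-1 and -0.10 for eri-6, where 0.248% of genes were called, and neither member passed in these 2 comparisons by either tool or at an unadjusted p under 0.05.

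Ordered by mean level, sosi-1 was lowest in hrde-1;HC125, then HC125, F6 (694 ± 7.20 CPM), F21 (713 ± 4.57 CPM) and N2 (735 ± 12.0 CPM; SD, n = 2 in these 3 groups). Of the neighbours in that order, hrde-1;HC125 and HC125 differed, and edgeR called none of the other 3 neighbouring pairs. F6 and HC125 overlapped, whereas both F6 libraries were below both F21 libraries and both F21 libraries below both N2 libraries, by small gaps. With 2 libraries against 2, such an order often arises with no difference, and its share over all genes was not counted. eri-6 was lowest in hrde-1;HC125, then HC125, F21 (4759 ± 49.4 CPM), F6 (4781 ± 111 CPM) and N2 (5448 ± 766 CPM; SD, n = 2 in these 3 groups), and no neighbouring pair passed the test.

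**Figure D4:**
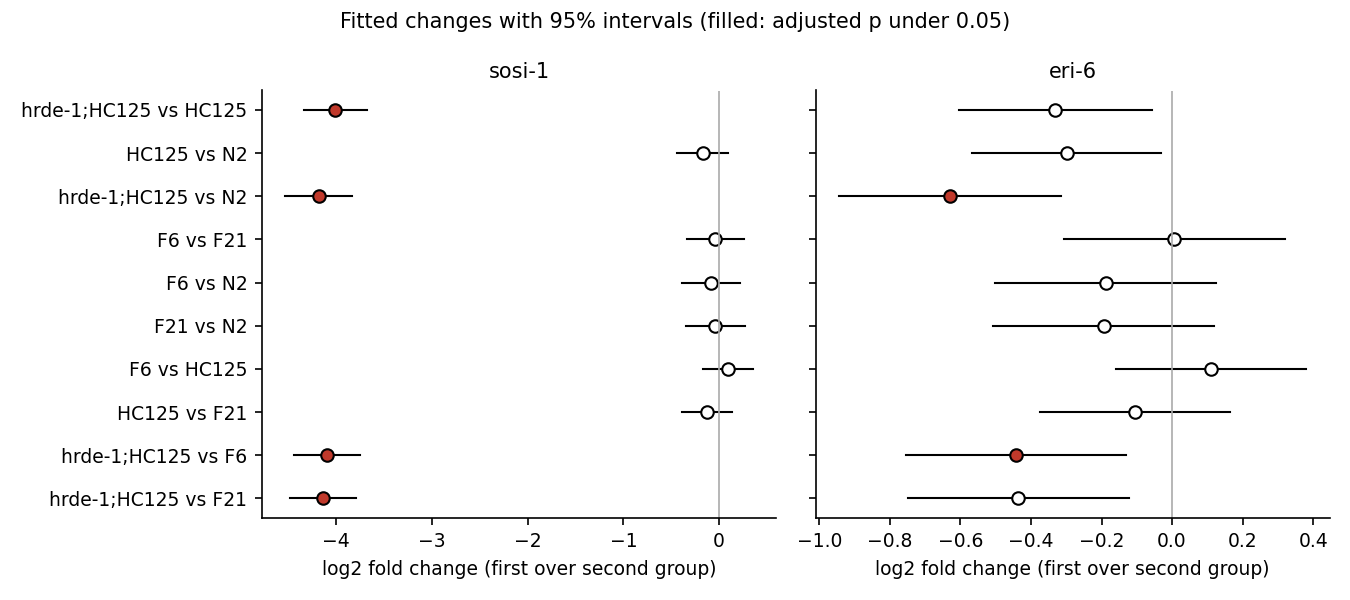
log2 fold change of sosi-1 and eri-6 in all 10 pairs of groups, with 95% intervals, on separate axes for the 2 genes, filled where the edgeR adjusted p was under 0.05. All 4 sosi-1 values with hrde-1;HC125 lie between -4.18 and -4.01, and no other pair was called for sosi-1. eri-6 was called relative to N2 and F6.

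Per kilobase of annotated exon, eri-6 small RNAs were denser than sosi-1 small RNAs in every group. The eri-6 level per kilobase was 701.5 CPM in hrde-1;HC125 and 883 CPM in HC125, and that of sosi-1 was 15.8 CPM in hrde-1;HC125 and 256 CPM in HC125. In N2 it was 1086 CPM for eri-6 and 287 CPM for sosi-1. Without exon bases shared with any other annotated gene, the lengths are 3567 bases for eri-6 and 1428 for sosi-1. If reads in those shared bases were discarded by the counting, the HC125 levels become 1241 and 458 CPM per kilobase. For eri-6 this also leaves out bases shared with T01A4.9, which is not in the count table, so 1241 may be too high.

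eri-7, which supplies the other part of the trans-spliced helicase mRNA, drew few small RNAs. Its level per kilobase was 5.97 CPM in hrde-1;HC125 and 8.30 CPM in HC125. The hrde-1;HC125 libraries had 13.7 and 12.4 CPM of eri-7, from 82 and 46 counts. The HC125 libraries had 19.4, 21.2, 14.99 and 17.1 CPM, from 9, 25, 27 and 65 counts, above both mutant libraries. The log2 fold change of -0.44 ± 0.29 (SE) was not called (edgeR adjusted p = 0.375). F6 had 29.0 and 26.3 CPM, F21 29.2 and 13.6 CPM, and N2 8.87 and 16.8 CPM. eri-7 was called in none of 6 comparisons: hrde-1;HC125 with HC125 and with N2, HC125 with N2, F6 with F21 and with N2, and F21 with N2. Of the other 5 nearest genes in the table, C41D11.9 and cmt-1 before eri-6 and gcy-28, mrpl-19 and rnf-145 after it, none was called in those comparisons, and rnf-145 had at most 16 counts in a library.

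The 5 tested genes whose levels followed sosi-1 most closely over the 12 libraries, by Pearson's r of log2 CPM, were F41G4.7 (0.998), Y38F2AR.12 (0.998), trp-4 (0.997), Y110A2AL.1 (0.997) and C38D9.2 (0.997). All 5 were called lower in hrde-1;HC125 than in HC125, where 9.20% of all tested genes were called lower. Their log2 fold changes lay between -7.96 for trp-4, a mechanosensory channel gene, and -2.63 for C38D9.2. Picking genes that follow sosi-1 over these libraries makes such calls likely. Over the 10 libraries outside hrde-1;HC125, r was 0.704 for F41G4.7, 0.472 for Y38F2AR.12, 0.249 for trp-4, 0.289 for Y110A2AL.1 and 0.739 for C38D9.2, so most of the likeness came from the 2 mutant libraries.

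The 5 genes most like eri-6 were Y105E8A.13 (0.967), Y37B11A.3 (0.961), Y57A10A.4 (0.955), gfi-3 (0.954) and AC8.3 (0.952). All 5 were called lower in hrde-1;HC125 than in HC125, where 9.20% of all tested genes were called lower. The log2 fold changes of these 5 ran from -1.69 for gfi-3 to -0.43 for Y105E8A.13. Without hrde-1;HC125 their r with eri-6 was still 0.897 to 0.946. No gene was among the closest 5 of both members. These values are descriptions: the libraries share their depth and scaling, and the genes were picked for the highest r. Picking genes over the same libraries also favours changes in the direction of the member they follow.

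Small RNAs at genes of the siRNA machinery were counted by list. The gene hrde-1 itself had 471 and 540.3 CPM of small RNAs in hrde-1;HC125, against 841, 839, 1273 and 1096 CPM in HC125 (log2 fold change -1.01, edgeR adjusted p = 0.000254). These are siRNAs matching the gene, so they do not measure the mutation. In hrde-1;HC125 relative to HC125, 1 of 9 nuclear RNAi genes tested rose, nrde-2, a nuclear silencing factor (0.48, adjusted p = 0.0168). Another 2 fell, hrde-1 and set-25, a histone methyltransferase gene (-0.46, adjusted p = 0.0429). These 3 are 33.3% of the list, where 17.0% of all tested genes were called. The median of that list was 0.02, against -0.03 over all genes.

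Of 13 genes of the ERI and ERGO-1 pathway, in which the ERI-6/7 helicase acts, 1 rose and none fell: dcr-1, which encodes Dicer (0.42, adjusted p = 0.0336), with a list median of -0.18. That is 7.69% of the list, where 17.0% of all tested genes were called. Of 15 genes of the mutator complex and of 22G amplification none rose and 2 fell, with a list median of -0.02, which is 13.3% of the list called against the same 17.0%. These were rde-12, a helicase gene (-0.50, adjusted p = 0.0152), and rrf-1, an RNA-dependent RNA polymerase gene (-0.45, adjusted p = 0.0475). Leaving out either hrde-1;HC125 library left no call in these 2 lists and 1 call among the nuclear RNAi genes. The ERI and ERGO-1 count also went to 0 without HC125 replicate 1, F6 replicate 1 or F6 replicate 2, and to 2 without HC125 replicate 3. It was 4 with replicate number as a block, 2 with library size alone, and 0 with no low-count filter or with only the 2 groups. The mutator count went to 1 without HC125 replicate 1, 2 or 4, F6 replicate 1 or 2, or F21 replicate 2, and with no low-count filter. It was 3 with the block. The nuclear RNAi count was 2 with library size alone, no filter, only the 2 groups or the block.

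The known targets of ERGO-1-class siRNAs, the class that ERI-6/7 serves, did move. Of 27 such genes 21 were in the table and 18 were tested, of which 11 fell and 1 rose in hrde-1;HC125 relative to HC125. That is 61.1% lower, where 9.20% of all tested genes were called lower. Of the 326 tested genes with a mean of at least 500 CPM in HC125, 109 were called lower, a larger share than over all genes. Several listed targets exceeded that level, K02E2.6 at 2234 CPM among them. A share over genes matched for abundance was not computed. The list median was -0.78, against -0.03 over all genes. Their summed level was 10516 and 8831 CPM in hrde-1;HC125, below all HC125 libraries, which had 15602 to 16378 CPM. The list was written with earlier results of these data known, and a shared cause with sosi-1 was not tested.

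fbxb-97, the list member with the smallest adjusted p, had 518 and 424 CPM in hrde-1;HC125, against 1617, 1549, 1448 and 1514 CPM in HC125 (log2 fold change -1.70 ± 0.17 SE, edgeR adjusted p = 8.51e-07). F55C9.3 had 123 and 88.7 CPM in hrde-1;HC125, against 288, 256, 239 and 219.6 CPM in HC125 (-1.23 ± 0.17, adjusted p = 3.79e-05). W04B5.2 fell by 1.02 and K02E2.6 by 0.85 on the log2 scale (adjusted p = 0.000216 and 0.000416). In all 4 genes both mutant libraries were below every HC125 library. These genes were picked for the smallest adjusted p in this comparison, which makes that separation likely. Y43F8B.9, named after its value was seen as the 1 gene that rose, changed by 0.78 (adjusted p = 0.00109). The number called depended on both mutant libraries: leaving out replicate 1 of hrde-1;HC125 gave 8 calls among the 18, and leaving out replicate 2 gave 6, against 12 with both.

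In HC125 relative to N2, edgeR and DESeq2 called no gene of these 4 lists. At an unadjusted p under 0.05 by edgeR there were 2 of the ERI and ERGO-1 pathway and 3 of the ERGO-1-class targets, and none of the other 2 lists, where 10.5% of all tested genes had such a p. Leaving out the 3 libraries that stood apart left N2 replicate 1 alone in its group. The median log2 fold change of the ERGO-1-class targets in HC125 relative to N2 was then -0.29, against 0.09 over all genes. With all 12 libraries these medians were -0.14 and 0.01. In F6 relative to F21 both tools called none, and none had an unadjusted edgeR p under 0.05, which 2.77% of all genes had. With only those 2 groups fitted, or without the 3 libraries, 1 ERGO-1-class target was called, where 1.03% and 0.784% of all genes were called in those 2 fits.

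**Figure D5:**
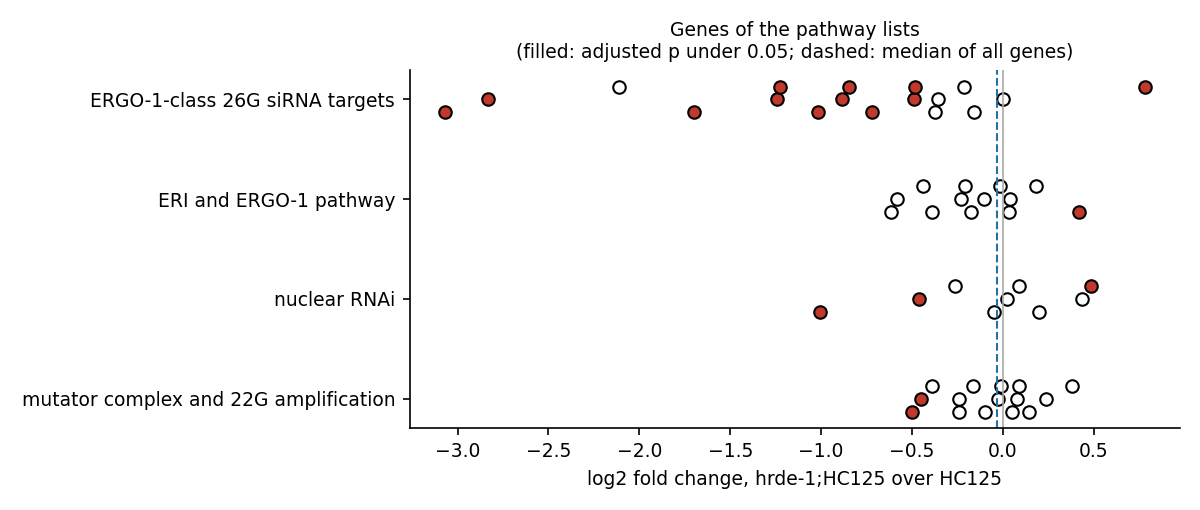
log2 fold change, hrde-1;HC125 over HC125, of small RNAs at each tested gene of the 4 lists. Filled points are genes called by edgeR, and the dashed line is the median of all genes, -0.03. Of 18 ERGO-1-class targets, 11 were called lower and 1 higher.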

How the data were processed

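Per the labels, total RNA was extracted with Trizol, treated with DNase I and a 5' polyphosphatase, and made into small RNA libraries. The authors deposited whole-number read counts per gene for reads of 21 to 26 nt. Bowtie2 and HTSeq are named in the submitters' processing notes, while versions, genome build, strand setting and the treatment of multiply matching reads were not given in the sources used here. Another 2 HC125 libraries, labelled 5'-dependent, were not analysed here. From the deposited counts, edgeR 4.0.16 in R 4.3.3 was fitted to all 12 libraries, with 1 coefficient per group and 7 residual degrees of freedom. It used TMM scaling and a filter on low counts (minimum count 10, minimum total 15), and was tested on simulated data. There, for hrde-1;HC125 relative to HC125, 200 of 10061 genes were changed, by 1 or 2 on the log2 scale. The fit recovered 54 genes changed by 1 and 87 changed by 2, and called 10 other genes. Real changes can therefore go uncalled. DESeq2 1.42.0 was an alternative. The log2 sosi-1 to eri-6 ratio used a pseudocount of 0.5. Intervals on single libraries cover counting error only. A level of 3 counts corresponds to 0.503 to 6.66 CPM, depending on the library. Names and coordinates came from Ensembl's annotation of WBcel235, which held 20194 of 20541 gene IDs and need not be the build of the counts. No sequences are shown.

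The named genes were both members, eri-7, the 3 nearest genes of the table on each side, the 5 most correlated genes per member, and up to 4 called genes per list with the smallest adjusted p, with hrde-1 and sid-1 where read beside the locus. The members and the lists were chosen with earlier results of these data known. No library had the same counts as another.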

Additional observations from a re-analysis of the deposited data

How the results depend on the processing

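sosi-1 was called lower in hrde-1;HC125 under every alternative run, relative to HC125, F6, F21 and N2, and no called result at the locus reversed. For eri-6 in hrde-1;HC125 relative to HC125 (-0.33), the threshold was passed with library size alone (-0.46), DESeq2 (-0.34), the replicate block (-0.40) and without the 3 libraries that stood apart (-0.27). Leaving out each library gave -0.42 to -0.26, with a call without N2 replicate 1 (-0.32, adjusted p = 0.0469). Relative to N2 (-0.63) the call was lost with only the 2 groups (-0.67), and leaving out each library gave -0.74 to -0.49. For HC125 relative to N2, eri-6 was -0.48 without the 3 libraries, a fit with N2 replicate 1 alone in its group. The ratio against the other libraries was -3.64 (adjusted exact permutation p = 0.0556) without them and -3.69 to -3.62 leaving out each library. Leaving out either hrde-1;HC125 library left 1 mutant library, too few for that test to pass. In each of these permutation tests the mutant ratios stayed lowest and p was the smallest possible, so the lost calls follow from the number of libraries. The cause of the other changes of call was not tested.

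For replicates 1 and 2, deviations of same-numbered libraries from their group means had correlations of both signs, from -0.25 to 0.31. The highest was between N2 replicate 2 and HC125 replicate 2. Between 2 groups of 2 libraries, the values for replicates 1 and 2 are equal by construction, so they are not separate evidence. HC125 replicates 3 and 4 were not compared with other groups, so a pairing or batch that involves them was not tested. In hrde-1;HC125 relative to F21, eri-6 passed with the replicate block (-0.44) and 7 other alternatives: library size alone, DESeq2, only the 2 groups, without N2 replicate 1, N2 replicate 2 or HC125 replicate 2, and without the 3 libraries. Apart from this call and the eri-6 call relative to HC125, the block changed no call at the locus.

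Counts of called genes moved by over 1.5 times. Fits without the 3 libraries that stood apart had N2 replicate 1 alone in its group. HC125 relative to N2 had 53 calls, against 98 with DESeq2, 256 with no filter, 18 with only the 2 groups, 488 without the 3 libraries, and 30 to 91 leaving out each library. F6 relative to F21 had 15, against 39, 140, 97, 90, 42 with the block, and 6 to 37. F6 relative to N2 had 150, against 519, 1183, 554, 252, 842 and 35 to 586. F21 relative to N2 had 21, against 93, 662, 37, 143, 172 and 9 to 107. Leaving out each library, hrde-1;HC125 had 1065 to 1947 calls relative to HC125 (1775 in all 12) and 1045 to 2072 relative to N2 (1857). Relative to N2 the block gave 2374 calls, and 2537 with crossed numbers, chosen after seeing the data.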
